A study of Mus musculus with 4 samples.

Results

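The genes described here are 10 enzymes, chaperones and helper proteins that fold, modify, trim and crosslink collagen: Serpinh1, Fkbp10, Crtap, P4ha1, P4ha2, Plod1, Plod2, Pcolce, Lox and Loxl2. They were taken by symbol from a list chosen with earlier results of these data known. Counts set beside the shares of all genes are therefore a description only. All 10 were found among the 23946 gene symbols of each library. RNA was measured in CD51+;CD200+ skeletal stem/progenitor cells sorted from wild-type CD-1 mice at postnatal day 3, with 1 library for each of 4 tissues: the coronal (COR), posterior frontal (PF) and sagittal (SAG) sutures and the tibia's growth plate (GP). The PF suture is the one that fuses in early life, the SAG and COR sutures remain patent, and the GP is the growth zone of a long bone. All of the sutures were still patent at the age sampled. The sort also left out cells with CD45, Ter119, Tie2, Thy1, 6C3 or CD105 on their surface. Sorted cells of pooled mice went into each library, so the values are averages over many cells and animals, and no difference between tissues has a replicate error or a p-value.

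Collagen chains are modified in the endoplasmic reticulum before they wind into a helix. Prolyl 4-hydroxylases stabilize the helix, lysyl hydroxylases prepare the sites for crosslinks and sugars, and chaperones and prolyl isomerases keep the chains from aggregating and speed their folding. After secretion, proteinases remove the propeptides and lysyl oxidases start the covalent crosslinks that give bone, cartilage and suture matrix their strength. Inherited loss of several of these genes causes brittle bone or joint contracture disorders.

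The expression level is given as FPKM, fragments scaled to transcript length and to the size of the library, which allows levels to be compared between genes. FPKM of 1 or more was listed for 11402 to 12263 genes per library. Relative depth, estimated from the steps between low values once transcript length is allowed for, placed the PF library at 44.0% of the depth of SAG, with COR at 87.5% and GP at 83.3%. By the same steps, the least covered value among the 10 genes, that of Plod2 in PF, rested on about 580 fragments. Itgav, which encodes CD51, was at 6.20 to 15.0 FPKM and Cd200 at 23.5 to 62.6 FPKM, while Ptprc, Tek and Thy1, genes of antigens gated out, stayed below 1 FPKM and Eng reached 1.70. Enpep, the gene of 6C3, which was gated out as well, was at 7.05 FPKM in PF and 1.39 to 3.74 in the other libraries. The SAG library stood apart: 8 neural and choroid plexus markers summed to 5316 FPKM there, against 13.4 to 483 in the others, and Ttr alone gave 5103. Type I collagen values were incomplete. Cuffdiff output lists 0 for Col1a1, Col1a2 and Col3a1 in COR and for Col1a2 in GP. Elsewhere Col1a1 was at 4894 FPKM in PF, 5048 in GP and 606 in SAG, and Col3a1 at 2634, 3111 and 533. Col1a2 was at 8161 FPKM in PF and 1336 in SAG. Enzyme levels could thus not be set against these substrates in every tissue. None of the 10 genes is listed at 0 in any library.

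All 10 genes were at 9.27 FPKM or more in every tissue, and SAG-CD51+;CD200+ cells had the lowest level of 9 of them. Among all 9802 genes that reached 5 FPKM in at least 1 library, 29.9% were lowest in SAG. The exception was Plod2, which was lowest in PF. In such bulk samples fewer cells of a type and less RNA per cell cannot be told apart. COR had the highest level of 6 genes, PF of 3 and GP of 1, where 22.1% of all those genes were highest in COR, 34.8% in PF, 16.6% in GP and 26.6% in SAG. Summed over the 10 genes, the level was 3829 FPKM in COR, 3864 in PF, 2875 in GP and 1166 in SAG. As a share of all FPKM in the library this was 0.780% in COR, 0.701% in PF, 0.558% in GP and 0.261% in SAG. Without Pcolce, the gene with the highest level, the shares were 0.510%, 0.353%, 0.337% and 0.194% in the same order. The COR total lacks Col1a1, Col1a2, Col3a1 and Sparc, and the GP total lacks Col1a2, all listed at 0. Such gaps raise the shares in COR and GP. The position of the genes within each library, which does not depend on scaling between libraries, was also lowest in SAG: the median member stood at percentile 88.6 of the genes with 1 FPKM or more in SAG, against 94.6 in PF, 96.3 in COR and 93.6 in GP.

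**Figure D1:**
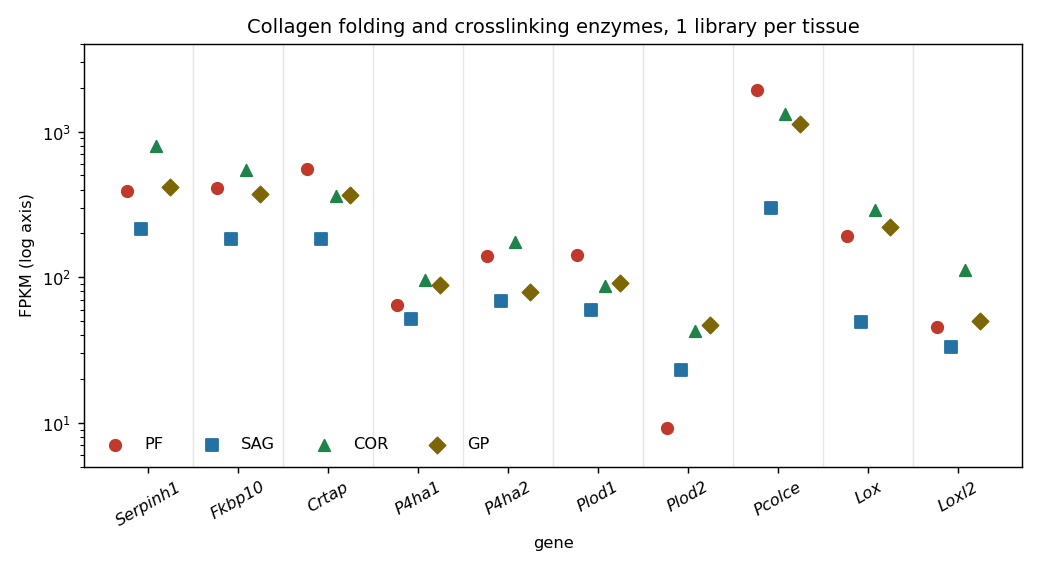
FPKM (vertical log axis) of each of the 10 genes (horizontal axis) in the PF, SAG, COR and GP libraries, 1 point per library. SAG is the lowest point for every gene except Plod2, for which PF is lowest at 9.27 FPKM.

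Among the folding chaperones, Serpinh1 (mm9 chromosome 7, 106493885 to 106501740) encodes HSP47, the chaperone dedicated to procollagen. Its level was 800.0 FPKM in COR, 389 in PF, 419.6 in GP and 215 in SAG. COR was thus apart from the other tissues, while PF and GP were nearly level. Fkbp10 (chromosome 11, 100277011 to 100286138) encodes FKBP65, a prolyl isomerase of the endoplasmic reticulum that acts on procollagen and helps the lysyl hydroxylase encoded by Plod2. It was at 542 FPKM in COR, 409 in PF, 371 in GP and 183 in SAG. Of the 10 genes, Fkbp10 lay closest to their mean pattern over the 4 libraries. Crtap (chromosome 9, 114284252 to 114299793) encodes cartilage-associated protein, the helper of prolyl 3-hydroxylase 1. It was at 359 FPKM in COR, 551 in PF, 368 in GP and 184 in SAG, so it was highest in PF rather than in COR.

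P4ha1 and P4ha2 encode catalytic alpha subunits of collagen prolyl 4-hydroxylase. P4ha1 (chromosome 10, 58786044 to 58836052) was at 95.4 FPKM in COR, 64.9 in PF, 88.5 in GP and 51.4 in SAG. Its highest and lowest values differed 1.85-fold, the narrowest range of the 10 genes. P4ha2 (chromosome 11, 53913597 to 53945167) was at 176 FPKM in COR, 141 in PF, 79.6 in GP and 68.6 in SAG. Here the PF and COR sutures were high, and SAG and GP were low.

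The lysyl hydroxylases divided the tissues differently. Plod1 (chromosome 4, 147283862 to 147310876) encodes the enzyme that hydroxylates lysines within the collagen helix. Its level was 87.2 FPKM in COR, 143 in PF, 91.4 in GP and 60.0 in SAG, with PF highest. Plod2 (chromosome 9, 92437061 to 92503266) encodes the enzyme that hydroxylates lysines in the telopeptides, the step that leads to the crosslinks typical of skeletal collagen. It was at 42.5 FPKM in COR, 9.27 in PF, 46.7 in GP and 23.2 in SAG. Plod2 had the lowest level of the 10 genes in every library, and its place in PF, percentile 47.5 of the genes with 1 FPKM or more, was far below its places in SAG (70.9), COR (80.6) and GP (82.8). No other member fell below percentile 78.4 in any library.

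Pcolce (chromosome 5, 138046331 to 138055012) encodes the enhancer of the proteinase BMP1, which removes the C-terminal propeptide of fibrillar procollagens. It had the highest level of the 10 genes in every library, with 1327 FPKM in COR, 1920.4 in PF, 1136 in GP and 298 in SAG. The 6.44-fold range was the widest of the 10 genes and came from the low SAG value, since the other tissues lay within 1.69-fold of one another on the FPKM + 1 scale.

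Lox and Loxl2 encode lysyl oxidases, copper enzymes that oxidize lysines of secreted collagen. Lox was at 288 FPKM in COR, 191 in PF, 223 in GP and 49.1 in SAG. SAG was again far below the other tissues, which lay within 1.51-fold of one another. Loxl2 (chromosome 14, 70008978 to 70095640) was at 112 FPKM in COR, 45.5 in PF, 50.1 in GP and 33.3 in SAG. In contrast to Lox, COR alone was high and PF, SAG and GP lay together.

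Promoter sequence was available for 6 of the 10 genes: Serpinh1, P4ha1, P4ha2, Plod1, Crtap and Pcolce. Plod2, Lox, Loxl2 and Fkbp10 had no entry. The 250 bases before the start were searched on both strands for ACGTG, the core of the hypoxia response element, and GGGCGG, the GC box. ACGTG was found in Serpinh1, P4ha1 and P4ha2 and not in Plod1, Crtap or Pcolce, too few genes to relate the motif to expression. The listed start of Crtap matched no coding transcript start. Over 32851 promoters, 16.6% hold ACGTG and 32.7% hold GGGCGG. The GC box was found in 5 of the 6, all except Crtap. CCAAT, held by 33.8% of all promoters, and GAANNTTC, a unit of the heat shock element held by 6.69%, were in none of the 6. TATAAA, held by 12.4%, was in Crtap and Plod1. No motif searched contains another. The 100-base stretches below are shown because they carry matches of ACGTG or GGGCGG. They are RefSeq sequences of build GRCm38.p6, whose coordinates differ from the mm9 positions given above, and capitals mark ACGTG or GGGCGG on either strand. The Serpinh1 stretch lies 100 bases farther upstream than the others, which end at the base before the start, and the GGGCGG matches of Serpinh1 and P4ha1 and 1 of those of P4ha2 fall outside the stretches.
Serpinh1, chr7:99353340-99353439, minus strand: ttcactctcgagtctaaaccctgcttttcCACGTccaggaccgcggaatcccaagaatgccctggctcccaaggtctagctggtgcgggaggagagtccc
P4ha1, chr10:59323196-59323295, plus strand: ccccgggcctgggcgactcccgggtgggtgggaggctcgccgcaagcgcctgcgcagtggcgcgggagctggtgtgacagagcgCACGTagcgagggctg
P4ha2, chr11:54100824-54100923, plus strand: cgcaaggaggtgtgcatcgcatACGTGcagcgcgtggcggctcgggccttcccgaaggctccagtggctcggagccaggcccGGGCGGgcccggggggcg
Pcolce, chr5:137611405-137611504, minus strand: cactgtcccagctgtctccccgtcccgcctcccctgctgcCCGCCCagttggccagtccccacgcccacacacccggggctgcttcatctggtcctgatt
Plod1, chr4:147936777-147936876, minus strand: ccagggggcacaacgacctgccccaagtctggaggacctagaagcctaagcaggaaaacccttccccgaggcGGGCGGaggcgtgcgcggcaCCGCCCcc
A match of letters is a description of the window, and binding was not measured.

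PF was compared with each suture that stays patent, at an age when PF itself was still open. The comparison asked whether matrix enzymes differ in the cells of a suture that will close. Each ratio is a difference of log2(FPKM + 1) values, close to the plain ratio at these levels, and 3-fold, the size used in the study, was the threshold for counting a gene as apart. PF exceeded SAG for 9 of 10 genes, with a median log2 ratio of 1.09, against 0.03 over all 13490 genes that reached 1 FPKM in either library. At least 3-fold higher in PF were 2 of 10 genes, Pcolce (6.43-fold) and Lox (3.83-fold), where 6.64% of all genes passed in that direction. Crtap, at 2.99-fold, fell just short. None of the 10 was at least 3-fold lower in PF, against 9.04% of all genes, although Plod2 was 2.36-fold lower. P4ha1 and Loxl2 differed least, at 1.26-fold and 1.36-fold.

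Compared with COR, PF was lower for 7 of 10 genes, with a median log2 ratio of -0.48 against 0.05 over 12853 genes. Plod2 was 4.23-fold lower in PF, the only member of the 10 to pass 3-fold in this pair, where 4.87% of all genes were at least 3-fold lower. Loxl2 followed at 2.43-fold lower and Serpinh1 at 2.05-fold lower. Plod1 and Crtap were higher in PF by 1.64-fold and 1.53-fold, as was Pcolce by 1.45-fold, a difference that turned to a log2 ratio of -0.04 under quantile normalization. None was at least 3-fold higher in PF, against 6.81% of all genes.

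By the median ratio, the COR and SAG sutures, which stay patent, differed more in these genes than PF differed from either. All 10 genes were higher in COR than in SAG, with a median log2 ratio of 1.45 against -0.02 over 12720 genes. At least 3-fold higher in COR were 4 of 10 genes, where 3.11% of all genes passed: Lox at 5.77-fold, Pcolce at 4.44-fold, Serpinh1 at 3.70-fold and Loxl2 at 3.30-fold. Fkbp10 lay just under the threshold at 2.94-fold. No member was 3-fold lower in COR, compared with 6.15% of all genes. The smallest difference was that of Plod1, at 1.45-fold.

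The comparisons with the growth plate asked how the sutures differ from a growth zone of long bone. Against SAG, all 10 genes were higher in GP, with a median log2 ratio of 0.97 (-0.03 over all 12929 genes), and Lox (4.47-fold) and Pcolce (3.80-fold) passed 3-fold, where 3.86% of all genes did. None was 3-fold lower in GP than in SAG, against 4.80%. Against PF, 5 genes were higher and 5 lower in GP, with a median log2 ratio of -0.02. Relative to Gapdh 1 was higher and 9 were lower, but that scaling moved the median of all genes to -0.46, close to the -0.48 of the 10. Only Plod2 passed 3-fold, at 4.65-fold higher in GP, where 6.24% of all genes passed, and none of the 10 was 3-fold lower in GP, against 5.72%. Against COR, 7 of 10 genes were lower in GP, with a median log2 ratio of -0.30. Relative to Gapdh all 10 were, with the median of all genes at -0.21 and that of the 10 at -0.51. No member passed 3-fold in either direction, where 3.20% of all genes were higher in GP and 1.20% higher in COR. The largest differences in that pair were log2 ratios of -1.15 for Loxl2, -1.14 for P4ha2 and -0.93 for Serpinh1, all higher in COR. The comparisons share libraries, so a low value in SAG enters all 3 pairs with SAG.

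**Figure D2:**
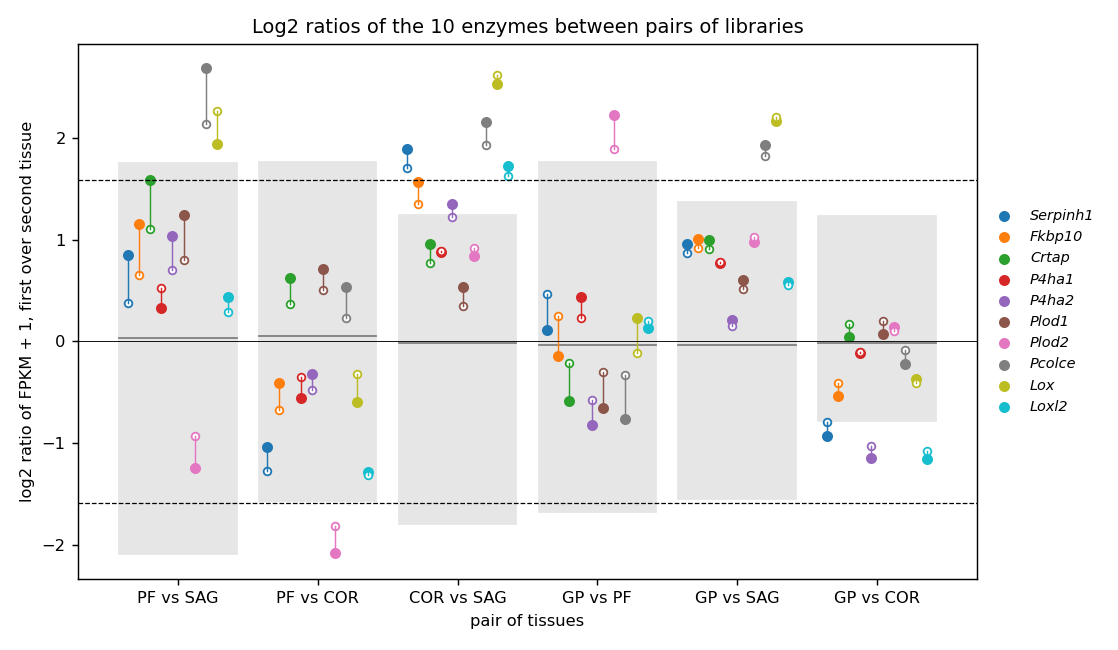
Log2 ratio of FPKM + 1 (vertical axis) of the 10 genes in each of the 6 pairs of tissues (horizontal axis). Filled points are the values as deposited, open points the values after the GC correction, grey boxes the middle 90% of all genes, grey lines their median, and dashed lines 3-fold. All points of COR vs SAG and GP vs SAG lie above 0, and the Plod2 point is the lowest in both pairs that start with PF.

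Base composition moved with part of these ratios. The coding transcripts of Plod2 and Lox hold 43.0% and 42.6% G and C, that of P4ha1 45.7%, and those of the other 7 genes 51.1% to 58.5%. A smooth correction of each ratio for GC content was added once the values were known. With it, the median log2 ratio of PF vs SAG was 0.67 in place of 1.09, and Crtap moved from 1.58 to 1.10. Pcolce and Lox still passed 3-fold in that pair. The corrected log2 ratio of Plod2 was -0.93 in PF vs SAG, against -1.24 before, and -1.81 when PF was set against COR. Lox, with nearly the GC content of Plod2, moved the same way, from 1.94 to 2.26 for PF vs SAG, so its distance from 0 grew while that of Plod2 shrank. In COR vs SAG the corrected median was 1.28, and 4 of 10 genes still lay past 3-fold.

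Ratios between genes of the same library do not depend on how libraries were scaled, although GC content can still move them. Plod1 exceeded Plod2 2.05-fold in COR, 15.5-fold in PF, 1.95-fold in GP and 2.58-fold in SAG. The GC correction narrowed the contrast between PF and SAG in this ratio: the log2 ratio of PF vs SAG went from 1.24 to 0.80 for Plod1 and from -1.24 to -0.93 for Plod2. As deposited, Plod2 gave 3.90% of the summed lysyl hydroxylase FPKM in PF and 19.3%, 23.0% and 25.3% in SAG, COR and GP. Plod1 relative to Plod3, which encodes the lysyl hydroxylase that also glucosylates collagen, varied little, from 1.58 in COR to 1.94 in GP. This ratio was added after the values were seen. Fkbp10, whose product assists the Plod2 enzyme, exceeded Plod2 by 44.1-fold in PF and 7.90-fold to 12.8-fold elsewhere, also a ratio chosen after its values were seen.

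The makeup of the prolyl 4-hydroxylases differed between the libraries. P4ha2 was above P4ha1 in the 3 sutures, by 2.17-fold in PF, 1.33-fold in SAG and 1.85-fold in COR, and just below it in GP, at 0.899. P4ha3, a further alpha subunit, gave 15.5% of the summed alpha subunit FPKM in SAG, 20.9% in PF, 24.7% in COR and 30.6% in GP. For P4ha1 SAG was near GP, at 36.2% and 36.6%, against 25.0% in PF and 26.5% in COR. The sum of the 3 alpha subunits over P4hb, which encodes the shared beta subunit protein disulfide isomerase, stayed between 0.299 in SAG and 0.390 in COR. P4hb itself was at 924 FPKM in COR, 721 in PF, 747 in GP and 475 in SAG, in excess of the alpha subunits in each library.

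Crtap works in a complex with prolyl 3-hydroxylase 1, encoded by Lepre1, and cyclophilin B, encoded by Ppib. Lepre1 was at 91.9 FPKM in COR, 147 in PF, 66.4 in GP and 38.1 in SAG, and Ppib at 954, 1291, 927 and 721 in that order. All components of the complex were therefore highest in PF and lowest in SAG. Crtap over Lepre1 ran from 3.75 in PF to 5.54 in GP, and Crtap over Ppib from 0.255 in SAG to 0.427 in PF. Leprel2, which encodes prolyl 3-hydroxylase 3, had the same order of extremes, with 143 FPKM in COR, 288 in PF, 128 in GP and 73.1 in SAG. Leprel1, which encodes prolyl 3-hydroxylase 2, was lowest in PF and highest in GP: it was at 5.06 FPKM in COR, 0.136 in PF, 19.2 in GP and 7.31 in SAG.

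Of the lysyl oxidase family, Lox gave 57.4% of the summed FPKM in PF, 63.4% in COR and 60.3% in GP but 34.2% in SAG. The rest of the SAG total was spread over Loxl2 (23.2%), Loxl3 (20.4%), Loxl1 (16.6%) and Loxl4 (5.52%). Lox over Loxl2 was 2.56 in COR, 4.18 in PF, 4.45 in GP and 1.48 in SAG. Loxl1, the member linked to elastic fibers, was highest in PF at 74.5 FPKM, against 23.8 in SAG, 30.7 in COR and 35.7 in GP. Loxl4 was at 7.22 FPKM in COR, 2.63 in PF, 23.1 in GP and 7.91 in SAG, and Loxl3 was also highest in GP, at 37.9 FPKM against 16.1 to 29.3.

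**Figure D3:**
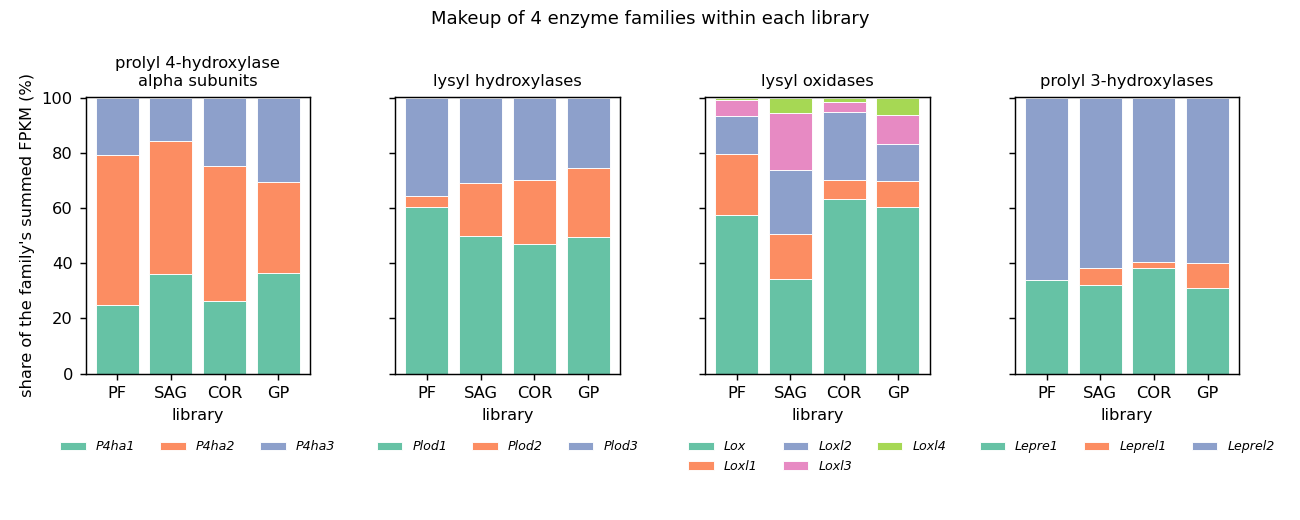
Share of each gene (colours) in the summed FPKM of its enzyme family (vertical axis, percent) in each library (horizontal axis). Plod2 takes 3.90% of the lysyl hydroxylases in PF and 19.3% to 25.3% elsewhere, and Lox takes 34.2% of the lysyl oxidases in SAG and 57.4% to 63.4% elsewhere.

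Pcolce acts with the proteinase encoded by Bmp1, which was at 139 FPKM in COR, 102 in PF, 105 in GP and 54.2 in SAG. Pcolce over Bmp1 was 9.54 in COR, 18.8 in PF, 10.8 in GP and 5.50 in SAG. The paralog Pcolce2 followed another order, with 4.30 FPKM in COR, 5.23 in PF, 52.3 in GP and 34.8 in SAG. Its high values fell in the libraries rich in cartilage collagen: Col2a1, the main collagen of cartilage, was at 35.4 FPKM in COR, 31.4 in PF, 1731 in GP and 1749.8 in SAG. Adamts2, which encodes the proteinase for the N-terminal propeptide, was at 68.3 FPKM in COR, 137 in PF, 28.8 in GP and 17.4 in SAG. Its relative Adamts14 was at 11.1, 7.55, 3.19 and 1.07 FPKM, and Tll1, a relative of Bmp1, at 0.717, 8.06, 3.48 and 2.11, in the same order.

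Beyond these 10 genes, 49 other genes of collagen hydroxylation, folding, export, propeptide removal and crosslinking were followed as a list, also chosen with earlier results known. Sparc was left out of it because it is listed at 0 in COR and at 3723 to 9849 FPKM elsewhere. Of the 44 that reached 5 FPKM in a library, 31 were lowest in SAG, 7 in COR, 6 in PF and 0 in GP, beside 29.9%, 17.7%, 34.3% and 18.1% of all genes. The highest value was in PF for 17, in COR for 13, in GP for 12 and in SAG for 2, beside 34.8%, 22.1%, 16.6% and 26.6% of all genes. In PF vs SAG, 10 of 48 genes were at least 3-fold higher and 3 at least 3-fold lower in PF, with a median log2 ratio of 0.82, where 6.64% and 9.04% of all genes were. In COR vs SAG, 8 of 47 were higher and 1 lower in COR (median 0.66), against 3.11% and 6.15% of all genes. In GP vs SAG, 6 of 47 were higher and 0 lower in GP (median 0.65), against 3.86% and 4.80%. The pair PF vs COR had 2 of 46 higher and 1 lower in PF (median 0.03), against 6.81% and 4.87%. For GP vs PF, 5 of 48 were higher and 1 lower in GP (median 0.03), against 6.24% and 5.72%. For GP vs COR, 5 of 47 were higher and 0 lower in GP (median -0.10), against 3.20% and 1.20%.

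Fkbp7, Fkbp11 and Creb3l1 were at least 3-fold above SAG in each of the other tissues. Fkbp11, a prolyl isomerase gene, was at 394 FPKM in COR, 400.3 in PF, 282 in GP and 75.4 in SAG. Fkbp7, another one, was at 366, 375, 381 and 109 FPKM in that order. Kdelr3, which encodes a receptor that returns resident proteins to the endoplasmic reticulum, was at 454, 485, 377 and 135 FPKM. Creb3l1, which encodes a transcription factor of the collagen secretory pathway in osteoblasts, was at 184, 166, 107 and 28.9 FPKM. Each of these 4 genes had the split of Lox and Pcolce, with SAG alone low. Sec24d, a coat protein gene of collagen export, was at 114, 81.0, 72.9 and 34.9 FPKM, and P4ha3 at 88.8, 54.3, 74.0 and 22.1, all in the same order. Fkbp14, a paralog of Fkbp10, varied less, at 106, 65.9, 83.5 and 54.5 FPKM, and Plod3 was at 55.3, 84.8, 47.0 and 37.2.

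A few genes of the list stood apart in GP or PF. F13a1, which encodes the transglutaminase subunit of factor XIII, was at 64.7 FPKM in GP and 0.486 to 2.43 in the sutures. Fbln5, an elastic fiber gene, was at 17.9 FPKM in COR, 41.0 in PF, 67.6 in GP and 14.7 in SAG. Fmod, which encodes the collagen-binding proteoglycan fibromodulin, was at 565 FPKM in COR, 1110.3 in PF, 1828 in GP and 1078 in SAG. Mfap4, a microfibril gene, was at 842 FPKM in COR, 2641 in PF, 1077 in GP and 435 in SAG.

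**Figure D4:**
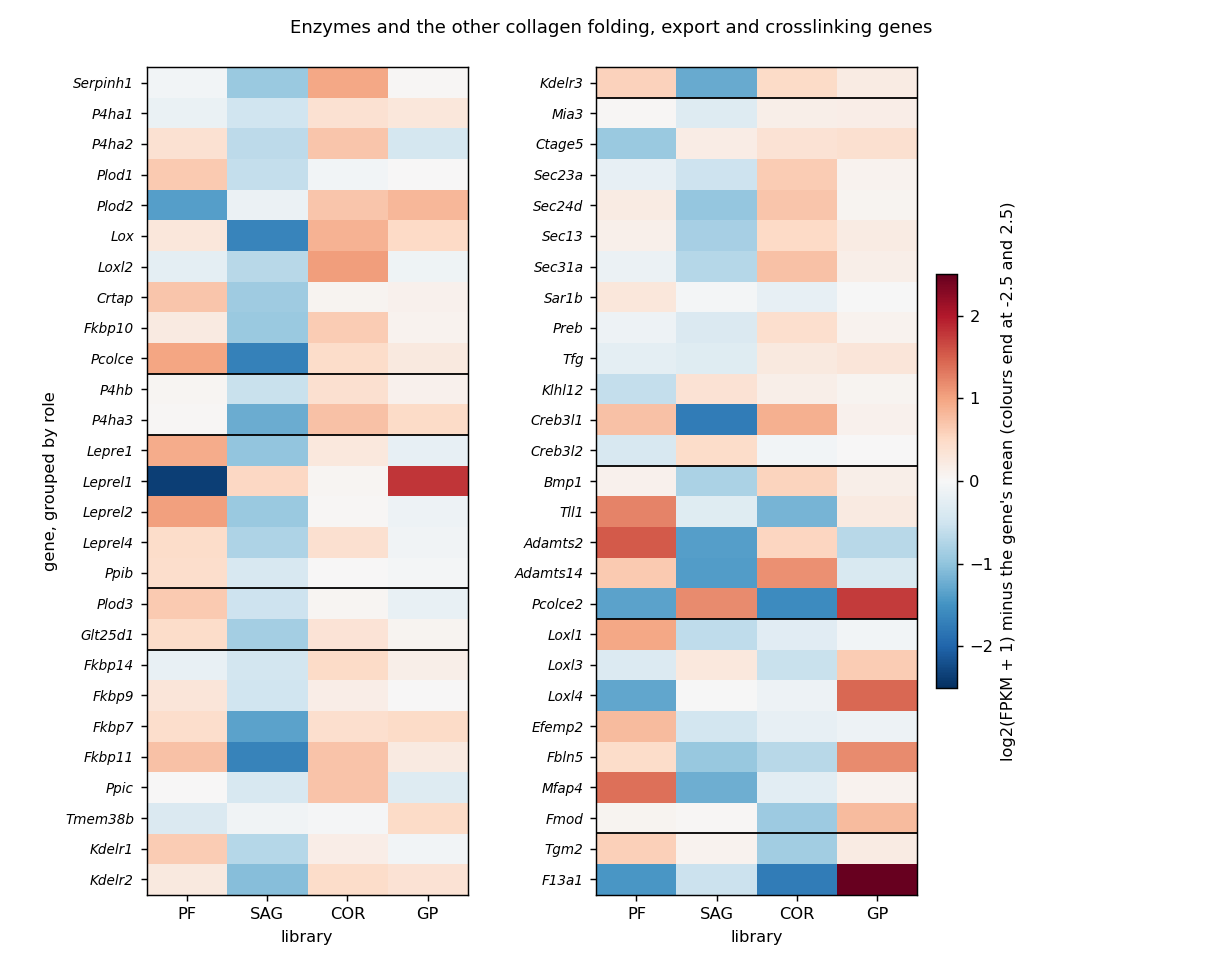
Log2(FPKM + 1) of each gene (rows, grouped by role, the 10 genes described here first) in each library (columns), minus the gene's mean over the 4 libraries, for genes that reached 5 FPKM. The SAG column is blue for most rows, while Plod2 and Leprel1 are blue in PF and F13a1 is red in GP.

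Markers of other cells differed between the libraries as well. Osteoblast markers, 8 genes all detected, summed to 892 FPKM in SAG, 2828 in PF, 12037 in COR and 8221 in GP. Most of each sum was Spp1, at 617, 1649, 8324 and 6882 FPKM in that order. Each of the 8 was highest in COR, where 6 of the 10 enzymes were highest. Of the 8 markers 6 were lowest in SAG and 2, Dmp1 and Phex, in PF. Tendon and fibroblast markers, 5 of 6 detected at 1 FPKM or more, summed to 1149 FPKM in SAG and 3445 to 5033 in the others, and most of that sum was Dcn and Lum. Of these 6 markers 3 were lowest in SAG, while Tnmd was lower in COR, at 69.6 FPKM against 142 in SAG, Dpt was lower in PF, at 1.05 against 2.11, and Pi16 was below 1 FPKM throughout. Chondrocyte markers, 9 of 10 in the files and all detected, summed to 4716 FPKM in SAG and 3670.0 in GP, against 138 in PF and 133 in COR. Of the 9 chondrocyte markers 5 were highest in SAG and 4 in GP. Matn1 reached 838 FPKM in SAG against 151 in GP, and Lect1 1094 against 219. Col10a1 went the other way, with 0.813 FPKM in SAG against 600.5 in GP. The 10 enzymes were 1.16-fold to 4.47-fold higher in GP than in SAG. The chondrocyte and the neural and choroid plexus markers took 1.05% and 1.19% of all FPKM in SAG. The FPKM share of such markers is not the share of those cells or of their RNA. Blood markers summed to at most 49.9 FPKM, endothelial markers to at most 16.3 and muscle markers to at most 12.9, with Ptprc, Itgam, Pecam1 and Myog below 1 FPKM in every library. The part of these cells in the enzyme levels was not tested.

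Of the collagen substrates listed above 0 in every library, those of fibrous tissue and bone matrix had the SAG minimum as well. Col5a1 was at 457 FPKM in COR, 319.6 in PF, 284 in GP and 72.6 in SAG, Col5a2 at 337, 207, 196 and 61.2, and Col6a1 at 704, 516, 549 and 189, in the same order. Col12a1 was lowest in SAG too, at 50.9 FPKM against 120.4 to 198. The cartilage collagens did not share this order: Col9a1 was at 13.1 FPKM in COR, 6.15 in PF, 113 in GP and 404 in SAG, and Col11a1 reached 174 FPKM in GP and 159 in SAG, against 75.9 to 90.7. Col10a1, the collagen of hypertrophic cartilage, was at 600.5 FPKM in GP and at most 1.44 in the sutures. Set against the sum of Col5a1, Col5a2 and Col6a1, a ratio chosen after the values were seen, the 10 enzymes together stood at 2.56 in COR, 3.71 in PF, 2.79 in GP and 3.61 in SAG. On that scale SAG was not the lowest tissue, but those collagens were themselves lowest in SAG, so this order depends on their choice. Serpinh1 over the same sum was highest in SAG, at 0.666, against 0.374 in PF, 0.534 in COR and 0.408 in GP. Lox over the sum remained lowest in SAG, at 0.152 against 0.183 to 0.217. For Pcolce the ratio was 1.84 in PF, 1.10 in GP, 0.922 in SAG and 0.886 in COR.

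Several of the 10 genes, among them P4ha1, P4ha2, Plod2 and Lox, are known targets of the hypoxia response. Of a list of 12 other hypoxia-responsive genes, 6 were highest in SAG, 3 in PF, 3 in GP and 0 in COR. The shares of all genes at 5 FPKM or more were 26.6%, 34.8%, 16.6% and 22.1% in that order. The 12 genes summed to 1026 FPKM in COR, 751 in PF, 1144 in GP and 1433 in SAG. Most of each sum was Ldha, at 863, 584, 885 and 1097 FPKM. Slc2a1, the glucose transporter gene, was at 13.6 FPKM in COR, 4.28 in PF, 31.6 in GP and 107 in SAG, and Bnip3, a mitophagy gene, at 21.6, 7.85, 68.0 and 71.6 in that order. PF was the lowest tissue for 6 of the 12, where 34.3% of all genes at 5 FPKM or more were lowest in PF. The part of hypoxia in the levels of the 10 genes was not tested.

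**Figure D5:**
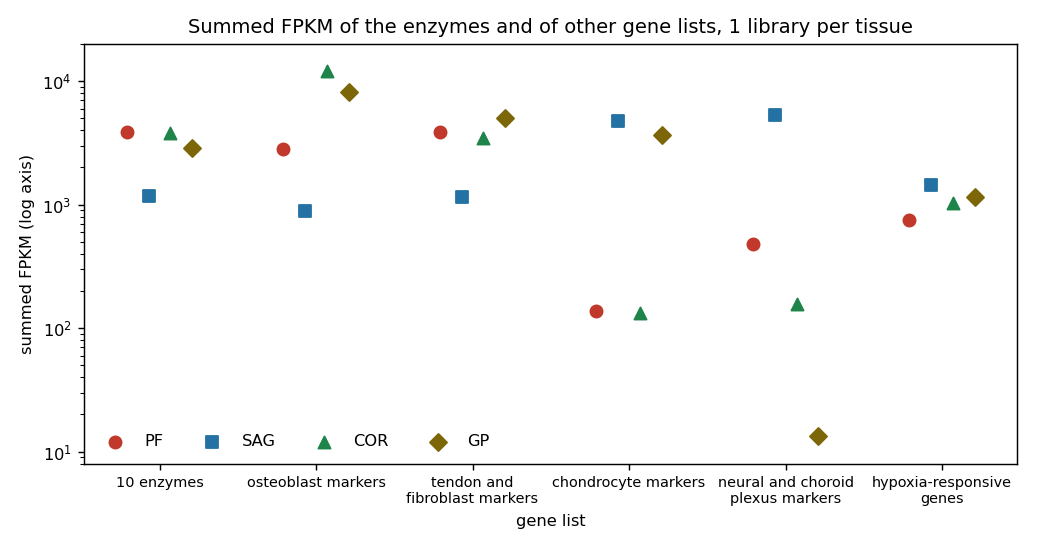
Summed FPKM (vertical log axis) of the 10 enzymes and of 5 other gene lists (horizontal axis) in each library, 1 point per library. SAG is lowest for the enzymes (1166 FPKM), the osteoblast markers (892) and the tendon and fibroblast markers (1149), and highest for the other 3 lists.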

How the data were processed

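RNA of sorted CD51+;CD200+ cells was amplified from low input and sequenced, with 1 library per tissue. The authors mapped paired-end reads to mm9 with STAR 2.5.1b and estimated FPKM with Cuffdiff of Cufflinks 2.2.1, versions that the submitters' processing notes give. The deposited FPKM values were used as given, and how Cuffdiff scaled the libraries is not given in the sources used here. Amplification, GC content and scaling can each shift a ratio between libraries, and fragment counts estimated from FPKM steps assume scaling in proportion to depth.

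Libraries were assigned to tissues from the sample labels. The members and gene lists were chosen with earlier results of these data known. Ratios were log2(FPKM + 1) differences for genes at 1 FPKM or above in either library of a pair, with 3-fold as threshold and no test. All 10 genes were named. Other pathway genes were named when 3-fold apart in a pair at 5 FPKM or more, or as partners or paralogs. GC content and length came from the longest coding transcript of the GENCODE annotation of the same build, and the correction was a lowess fit with span 0.3 on genes at 5 FPKM or more in both libraries, applied to each ratio. The ratio, count and correction steps were tested on simulated data. Python 3.11.15, numpy 2.4.6, pandas 2.3.3, statsmodels 0.14.6 and matplotlib 3.10.9 were used.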

Additional observations from a re-analysis of the deposited data

How the results depend on the processing

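No paired analysis was possible because only 1 library was made per tissue. The alternatives were a pseudocount of 0.1, median-ratio scaling, equal total FPKM, quantile normalization, values relative to Gapdh, other filters on low values, a 2-fold threshold and, chosen after seeing the data, the GC correction. A median counted as moved beyond 1.2-fold. All 10 genes stayed higher in COR and in GP than in SAG, and 9 of 10 higher in PF than in SAG, under each of these. Some of these differences nearly vanished: with equal totals the log2 ratio was 0.01 for P4ha2 in GP vs SAG and 0.03 for P4ha1 in PF vs SAG. The median log2 ratio of PF vs SAG was 0.79 with equal totals, 0.76 with quantile normalization, 0.67 after the GC correction and 1.62 relative to Gapdh. Quantile normalization gave 0.67 for GP vs SAG with 1 gene past 3-fold. Equal totals shifted the median log2 ratio of all genes to -0.28 in PF vs SAG, and values relative to Gapdh shifted it to 0.51. The totals of COR and GP lack Col1a2, which is listed at 0 in both. Relative to Gapdh, 5 genes passed 3-fold in PF vs SAG, and the medians were 1.73 for COR vs SAG and -0.48 for GP vs PF. At 2-fold, 7 genes were apart in PF vs SAG, 3 in PF vs COR and 2 in GP vs COR. Single ratios changed sign 13 times, of which 7 relative to Gapdh, 2 after the GC correction, 2 with quantile normalization and 2 with equal totals, none of them above 0.53 in size on the log2 scale. The cause was not tested. The filters on low values changed no value, since every member exceeds 5 FPKM in every library, which says nothing of stability. If the PF library is shallower, as the steps between low values put it, this limits low values such as Plod2 most. The absence of replicates limits every comparison.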

Other observations

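The genes whose pattern over the 4 libraries lay closest to the mean pattern of the 10 enzymes were sought among 9792 other genes with 5 FPKM or more in a library, by Euclidean distance of mean-centred log2(FPKM + 1) values. The mean pattern was 0.58 in COR, 0.14 in PF, 0.15 in GP and -0.87 in SAG. The nearest were S100a13 (distance 0.06), Tmem97 (0.08), Bmp1 (0.08), Lman1 (0.09) and Sec13 (0.11). Of these, Bmp1 encodes the proteinase that Pcolce enhances, Lman1 a cargo receptor between the endoplasmic reticulum and the Golgi, and Sec13 a coat protein of the same route. Lman1 was at 192 FPKM in COR, 137 in PF, 142 in GP and 74.2 in SAG, and Sec13 at 403, 315, 333 and 161 in the same order. With 4 libraries many genes can share a pattern, and nothing about shared control follows from it.

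Among the 10 genes, Plod2 lay farthest from their mean pattern, at a distance of 1.82, followed by Pcolce at 1.20 and Lox at 0.93. Fkbp10 lay closest at 0.14. The SD of log2(FPKM + 1) over the 4 libraries had a median of 0.70 for the 10 genes. It was 0.46 for all 13998 genes with 1 FPKM or more in a library, the 10 included. The 10 genes stood high in level among these, and adding 1 to FPKM shrinks the spread of low values. The medians are therefore not matched for level.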
